A study of Mus musculus with 13 samples.

Results

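Proteasome subunit genes were taken as all genes whose symbol matches Psma to Psmg followed by a digit, in both deposited tables. The rule used names only and no measured value. It found 50 genes of the 24972 in the tables, all of them in each of the 13 libraries. They comprised 8 core alpha genes, 7 constitutive core beta genes, 4 catalytic genes of the immunoproteasome and thymoproteasome, 6 ATPase and 11 non-ATPase genes of the regulatory particle, 3 genes of regulatory particle assembly, 4 of core assembly, and 6 activators and inhibitors. The remaining gene, Psmc3ip, matched by name and codes for a recombination factor that is not part of the proteasome.

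RNA came from common lymphoid progenitors (CLPs), BM cells from which T and B cells arise, of 5 WT, 5 Notch1+/-, and 3 Notch1+/ΔTAD mice, with 1 library per mouse. Notch1+/- mice carry the targeted tm1Con allele, whereas Notch1+/ΔTAD mice carry an allele without the transactivation domain. In both mutants the other allele is intact and the altered allele is present in every tissue, not only in CLPs. All mice were adults on C57BL/6, aged 6 to 12 weeks, and the cells of all groups were sorted as DAPI-, lineage negative, Sca1 low, cKit low, CD127+, and CD135+. The comparisons ask how gene expression in CLPs depends on Notch1.

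The proteasome degrades proteins tagged with ubiquitin. Its core particle is a barrel of alpha rings at both ends and beta rings between them, and 3 of the beta subunits, coded by Psmb5, Psmb6, and Psmb7, cut the substrate. In cells of the immune system these can be replaced by Psmb8, Psmb9, and Psmb10, which form the immunoproteasome and favor peptides for MHC class I, and in thymic cortical epithelium by Psmb11. The regulatory particle caps the core, removes ubiquitin, and unfolds substrates with its ring of ATPases. Each subunit is present in fixed number in the particle, and the subunit genes are commonly regarded as expressed in all cells.

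Values were the authors' TPM, a transcript abundance per gene length that sums to 1000000 in each library. The libraries were made from transcript 3′ ends, so dividing by length can shift the order of levels between genes. Read depth is unknown, and a TPM of exactly 0 may be a failed estimate, so genes are described as listed at 0. In bulk RNA, fewer cells of a type and less RNA per cell cannot be told apart. The number of genes above 0 was 3744 to 4614 in WT, 3264 to 6326 in Notch1+/-, and 4706 to 5764 in Notch1+/ΔTAD libraries. The CLP markers Dntt, Flt3, and Ly6d were above 0 in all 13 libraries, Il7r in 12, and Rag1 in 11. Kit was above 0 in 8, Rag2 in 6, and Ly6a, which codes for Sca1, in 5. The 8 erythroid and megakaryocyte markers were at 0 in 11 libraries and summed to at most 17.6 TPM, and Cd3e, Cd3g, and Cd8a were at 0 in all. The sum of 8 B lineage markers ranged from 6.00 to 1084 TPM in WT, 14.5 to 1839 TPM in Notch1+/-, and 79.5 to 1715 TPM in Notch1+/ΔTAD libraries, and that of 8 myeloid markers from 436 to 2067, from 212 to 1257, and from 272 to 1773 TPM. Of 9 T and NK markers only Nkg7, in 5 libraries at up to 1122 TPM, and Cd4, in 2 at up to 187 TPM, were above 0. Their sum ranged from 0 to 1309 TPM, the highest in WT library 10. These sums overlapped between genotypes, and their part in the results below was not tested. Notch1 was listed at 0 to 25.7 TPM in WT, 9.27 to 78.5 TPM in Notch1+/-, and 0.893 to 35.0 TPM in Notch1+/ΔTAD libraries. A read from the 3′ end does not tell the altered allele from the intact one where the deletion lies elsewhere, so Notch1 did not check the labels, and genotypes are given as labelled.

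Regions upstream of 3 members are shown, chosen by measured values for Psma7 and Psma5 and by sequence for Psmb6. Psma7 and Psma5, both core alpha genes, were the members whose Notch1+/ΔTAD and WT libraries did not overlap. Psmb6, a constitutive catalytic gene, was the member with an antioxidant response element nearest to its start. This element is bound by the Nfe2l1 and Nfe2l2 factors, which are known to activate proteasome genes. The sequences are 250 bases ending at the RefSeq transcript start on GRCm38.p6, in the direction of transcription, from chr2:180042465-180042714 on the minus strand, chr3:108256676-108256925 on the plus strand, and chr11:70525107-70525356 on the plus strand. Capitals mark the antioxidant response element TGACNNNGC.
Psma7: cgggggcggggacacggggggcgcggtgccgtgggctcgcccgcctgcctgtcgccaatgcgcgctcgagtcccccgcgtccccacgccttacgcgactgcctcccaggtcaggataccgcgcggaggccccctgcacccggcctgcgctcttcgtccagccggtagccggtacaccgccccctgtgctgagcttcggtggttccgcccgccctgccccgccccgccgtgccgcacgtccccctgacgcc
Psma5: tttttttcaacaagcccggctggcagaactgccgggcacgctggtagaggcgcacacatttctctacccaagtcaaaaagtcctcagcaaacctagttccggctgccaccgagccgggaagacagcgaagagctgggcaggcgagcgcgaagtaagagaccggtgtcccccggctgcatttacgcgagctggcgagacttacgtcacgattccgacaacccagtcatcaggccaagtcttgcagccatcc
Psmb6: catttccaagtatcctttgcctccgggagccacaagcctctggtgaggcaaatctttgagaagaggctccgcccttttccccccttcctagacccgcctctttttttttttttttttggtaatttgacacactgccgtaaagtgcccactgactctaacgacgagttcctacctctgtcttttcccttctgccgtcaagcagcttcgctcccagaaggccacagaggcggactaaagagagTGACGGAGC
The upstream sequences of Psma7 and Psma5 held no match on either strand to TGACNNNGC, to TGGGAA, the core letters bound by the Notch partner RBPj, or to the interferon-stimulated response element. The GC content was 77.2% for Psma7, 58.4% for Psma5, and 51.6% for Psmb6, against a median of 57.6% over 45 upstream windows of 42 members and 52.4% over 32817 windows of all genes. TGACNNNGC was found in 11.1% of member windows and 10.2% of all windows and TGGGAA in 9 of the 45 member windows and 21.6% of all windows. The interferon-stimulated response element was found in 3 of the 45 member windows (6.67%, those of Psmb3, Psmd4, and Psmd9) and 2.97% of all windows. For CCAAT the shares were 33.3% and 33.8%, and for TTCNNNGAA, the gamma-activated site, 4.44% (2 windows) and 7.01%. These were searched on both strands, and matches of different motifs were allowed to overlap. TGGGAA was found in the windows of Psma1, Psmb8, Psmb9, Psmb10, Psmc4, Psmd14, Psme1, Psme2, and Psmg4. TGACNNNGC was found in those of Psmb5, Psmb6, Psmc6, Psmd9, and Psmd12. All 250 bases of the Psmb8 window and of the Psmb9 window lay inside the gene as annotated by GENCODE. A match is a description of the letters and not evidence of binding.

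The proteasome genes were listed as a group in every library, but no single library held the full set. Psma8, a testis form of an alpha subunit, and Psmb11, the thymoproteasome subunit, were at 0 in all 13 libraries. The other 48 members were above 0 in at least 1 library, 4 of them in all 13 (Psma2, Psma7, Psmb8, and Psmd1), 33 in 7 to 12, and 11 in 1 to 6. Of their 624 values, 33.0% were 0, 10.7% lay between 0 and 10 TPM, and 56.2% were at least 10 TPM. Over all 10149 genes above 0 somewhere these shares were 56.5%, 13.9%, and 29.6%. The median member was above 0 in 9.5 libraries and the median gene in 5.

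**Figure D1:**
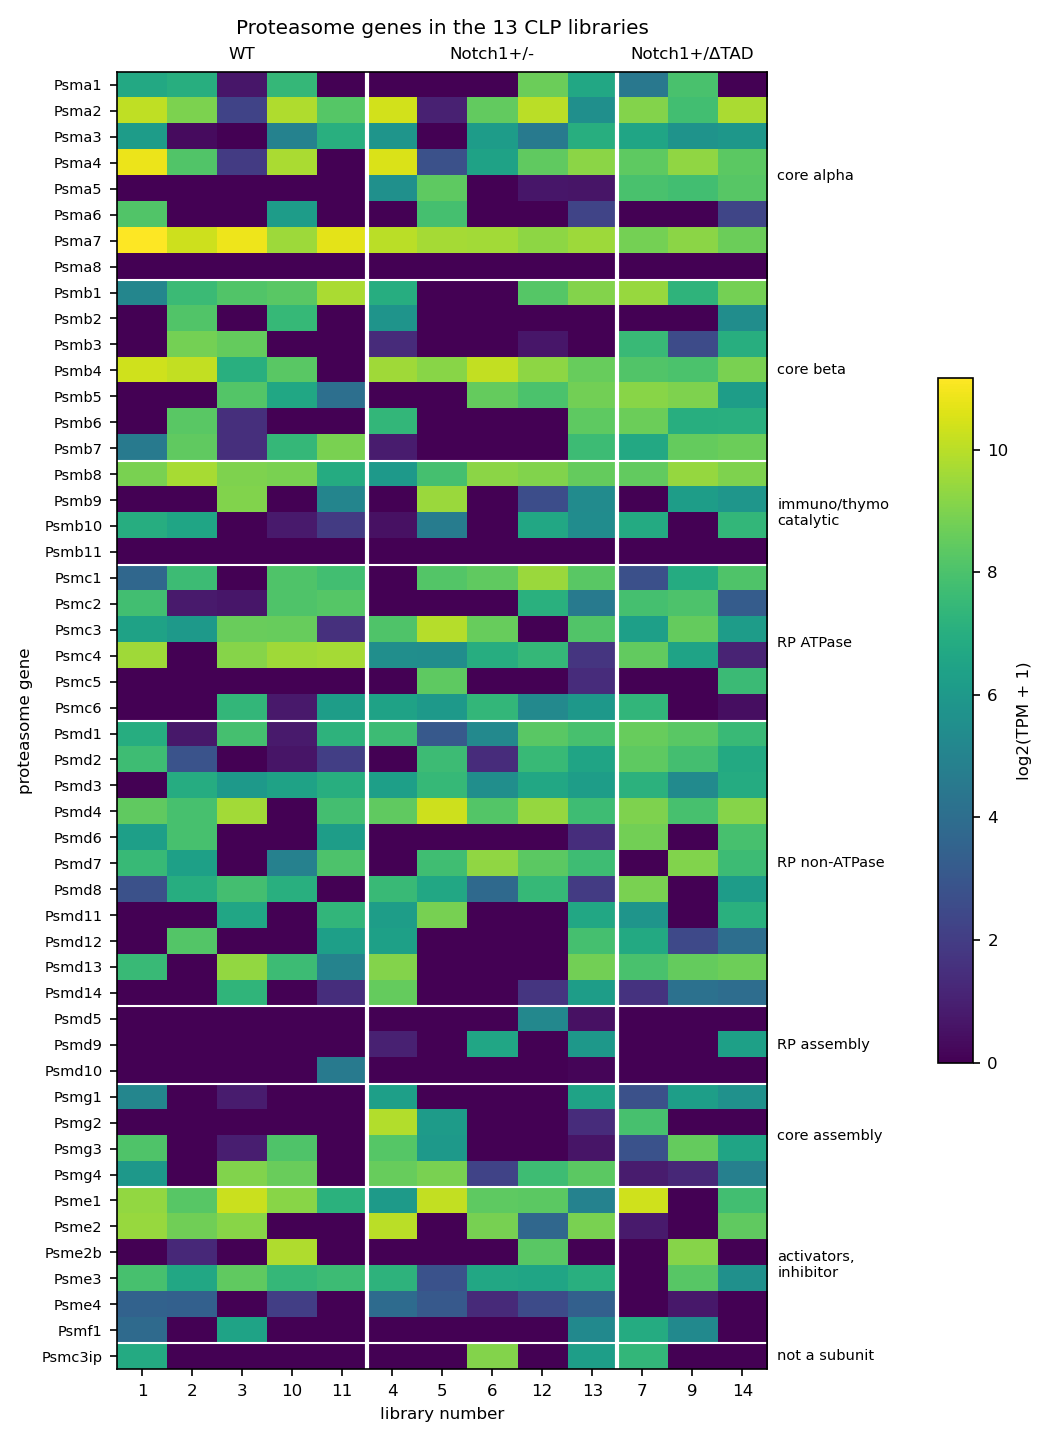
Level of each of the 50 proteasome genes (rows, by class; RP, regulatory particle) in each of the 13 libraries (columns, by genotype), as color from 0 to the highest log2(TPM + 1). Psma7 is bright in every column, Psma5 is dark in the 5 WT columns and bright in the 3 Notch1+/ΔTAD columns, and Psma8 and Psmb11 are dark throughout.

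Despite these gaps, the summed level spread less than that of single members. The 50 genes together held 6480 to 11961 TPM, or 0.648% to 1.20% of a library, with a coefficient of variation of 17.5%. The median coefficient of variation of a single member was 113%. The SD of the sum, 1519 TPM, was close to the 1593 TPM that the members' variances give if they are uncorrelated. The sums were 6480 to 11961 TPM in WT, 6982 to 10350.2 TPM in Notch1+/-, and 7877 to 9774 TPM in Notch1+/ΔTAD libraries. These ranges overlapped.

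Over the 13 libraries together, core alpha genes made a median of 25.0% of this sum (range 15.6% to 47.5%). Non-ATPase genes of the regulatory particle held a median of 21.6%, constitutive core beta genes 17.5%, activators and inhibitors 12.3%, ATPase genes 10.3%, the catalytic immunoproteasome genes 7.98%, and core assembly genes 3.03%. The order of the top classes by median sum differed between genotypes. The ranges of the core alpha and non-ATPase sums overlapped in each genotype, and the difference in order was not tested. The median sum was 2188 TPM for core alpha and 1108 TPM for non-ATPase genes in WT, against 1623 and 1781 TPM in Notch1+/- and 1966 and 2070 TPM in Notch1+/ΔTAD libraries. The assembly genes of the regulatory particle were at 0 in most libraries and held at most 1.36%. Psmc3ip, which is not a subunit gene but was kept in the sum and in the counts of members, held a median of 0% and at most 7.81%. Psma7 alone held 4.62% to 25.6%. By median TPM over the 13 libraries, the order was Psma7 (789), Psma2 (503), Psmb8 (489), Psmb4 (479), Psmd4 (348), Psme2 (341), Psma4 (334), and Psme1 (325). Neighbours in this order did not differ beyond their spread, since Psma7 ranged from 406 to 2289.8 TPM, Psma2 from 1.02 to 1352 TPM, Psmb8 from 65.2 to 839 TPM, and Psmb4 from 0 to 1328 TPM. The order also differed between genotypes. Psma7 had the highest median in WT (1659 TPM) and Notch1+/- libraries (789 TPM), whereas in Notch1+/ΔTAD libraries its median of 452 TPM lay below those of Psma2 (537), Psmd4 (518), Psmb5 (515), Psmb8 (509), and Psmb1 (456).

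**Figure D2:**
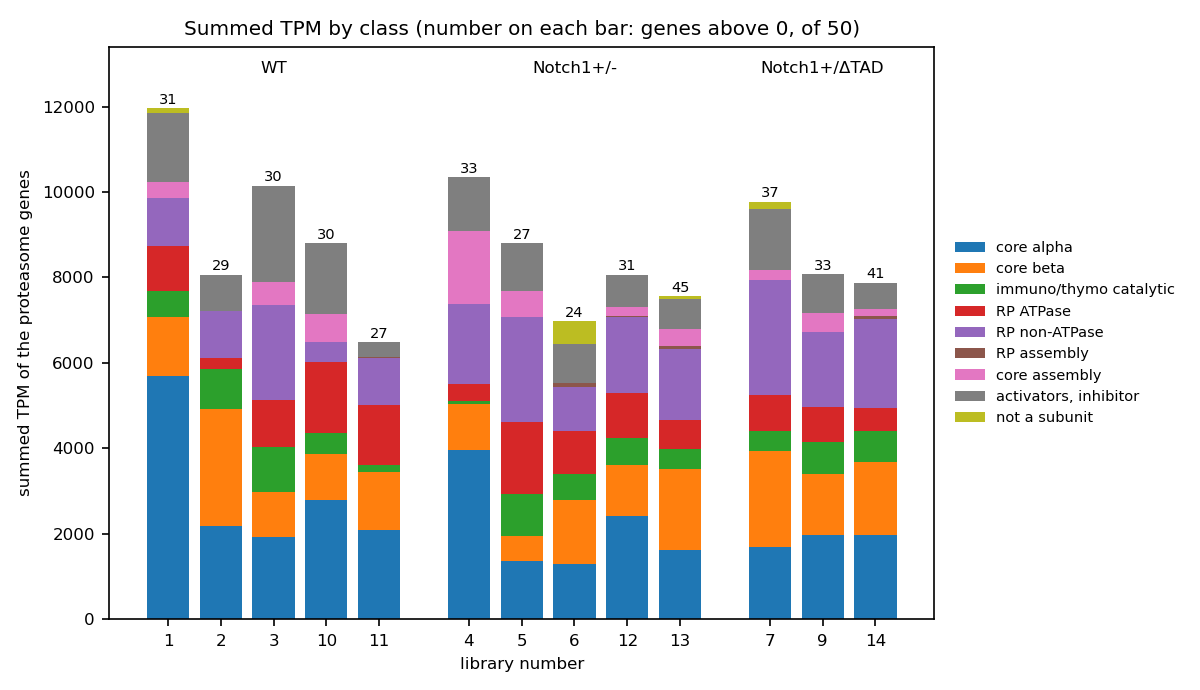
Summed TPM of the proteasome genes in each library, stacked by class, with the number of the 50 genes above 0 on top. The totals lie between 6480 and 11961 TPM in all genotypes, and the Notch1+/ΔTAD libraries list 33 to 41 of the genes against 27 to 31 in WT.

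More members were listed in Notch1+/ΔTAD than in WT libraries. The number above 0 was 27 to 31 in WT, 24 to 45 in Notch1+/-, and 33 to 41 in Notch1+/ΔTAD libraries. Every Notch1+/ΔTAD library lay above every WT library, and the number of all genes above 0, given above, was ordered in the same way. The part of that number in the members' count was not tested. Of 14 core genes with 1 for each position of the constitutive alpha and beta rings, 6 to 11 were above 0 in WT, 6 to 12 in Notch1+/-, and 12 to 13 in Notch1+/ΔTAD libraries, and 0 libraries listed all of them. Of 17 subunit genes of the regulatory particle, 11 to 15, 10 to 17, and 12 to 17 were above 0, and 2 libraries, Notch1+/- library 13 and Notch1+/ΔTAD library 14, listed all. In every Notch1+/ΔTAD library 26 members were above 0, in every Notch1+/- library 15, and in every WT library 10. Being above 0 throughout is easier in 3 Notch1+/ΔTAD libraries than in 5 of either other genotype, so these counts are not comparable. Psma5, Psmc5, Psmd5, Psmd9, and Psmg2 were at 0 in all 5 WT libraries. The shares of all genes with such patterns were not computed, and the counts are a description.

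Genotypes were compared on log2(TPM + 1) with limma over all genes with at least 1 TPM in 3 libraries (5 for Notch1+/- against WT), with Benjamini-Hochberg adjustment over all of them. In Notch1+/ΔTAD against WT CLPs 42 of the 50 members were tested, of which 0 passed at an adjusted p under 0.05 (0% of 4737 genes). At an unadjusted p under 0.05, 4 members were higher (Psma5, Psmb5, Psmb6, and Psmd2) and 1 was lower (Psma7), or 9.52% and 2.38%. Over all tested genes 4.14% were higher and 0.866% lower. The number higher was 2 without Notch1+/ΔTAD library 7 or 9 and 6 without WT library 3, and the number lower was 2 without Notch1+/ΔTAD library 7 or 9 or WT library 2. With libraries that did not overlap, 1 member was higher and 1 lower, against 2.39% and 0.739% of all genes. The median log2 fold change was 1.21 over the tested members and 0.47 over all tested genes. Quantile normalization moved these to 0.76 and -0.02, and 66.3% of all genes at an unadjusted p under 0.05 were then higher, against 82.7% without it, while the members remained 4 and 1. Members could pass the filter through Notch1+/ΔTAD libraries alone, as Psma5 did, and these counts are a description.

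In Notch1+/- against WT CLPs 31 members were tested, of which 0 passed limma at an adjusted p under 0.05 (0% of 3178 genes). At an unadjusted p under 0.05, 0 were higher and 2 were lower, Psma7 and Psmb7, where 2.67% of all genes were higher and 2.67% lower. The libraries of 0 members did not overlap, against 0.409% of genes higher and 0.378% lower. The median log2 fold change was 0.83 over the tested members and 0.06 over all genes. It was -0.15, 0.07, and 0.53 without WT libraries 11, 3, and 10, and 0.41 and 0.38 without Notch1+/- libraries 4 and 13. The number at an unadjusted p under 0.05 was 0 without Notch1+/- library 5, 6, or 12, 1 without Notch1+/- library 4 or WT library 1, 2, or 11, and 3 without WT library 3. These 2 comparisons share the WT libraries.

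In Notch1+/ΔTAD against Notch1+/- CLPs, in a model of all 13 libraries, 46 members were tested, of which 0 passed limma at an adjusted p under 0.05 (0% of 6281 genes). At an unadjusted p under 0.05, 5 were higher (Psma5, Psmb3, Psmb7, Psmd6, and Psmd13) and 1 was lower (Psmg4), or 10.9% and 2.17% of the members against 4.09% and 1.24% of all genes. The number higher was 2 without Notch1+/ΔTAD library 7 and 3 without Notch1+/ΔTAD library 14 or Notch1+/- library 6. The number lower was 2 without Notch1+/ΔTAD library 7 and 0 without Notch1+/ΔTAD library 9 or Notch1+/- library 4, 5, 12, or 13. Without overlap of libraries, 1 member was higher (Psmb3) and 2 were lower (Psma7 and Psme4), against 2.44% and 0.621% of all genes. The median log2 fold change was 0.62 over the tested members and 0.35 over all genes, or 0.66 and 0.0087 after quantile normalization. It was 0.31 without Notch1+/- library 5, 0.39 without library 6, and 0.41 without library 12, and 0.98 and 1.19 without Notch1+/ΔTAD libraries 7 and 9.

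**Figure D3:**
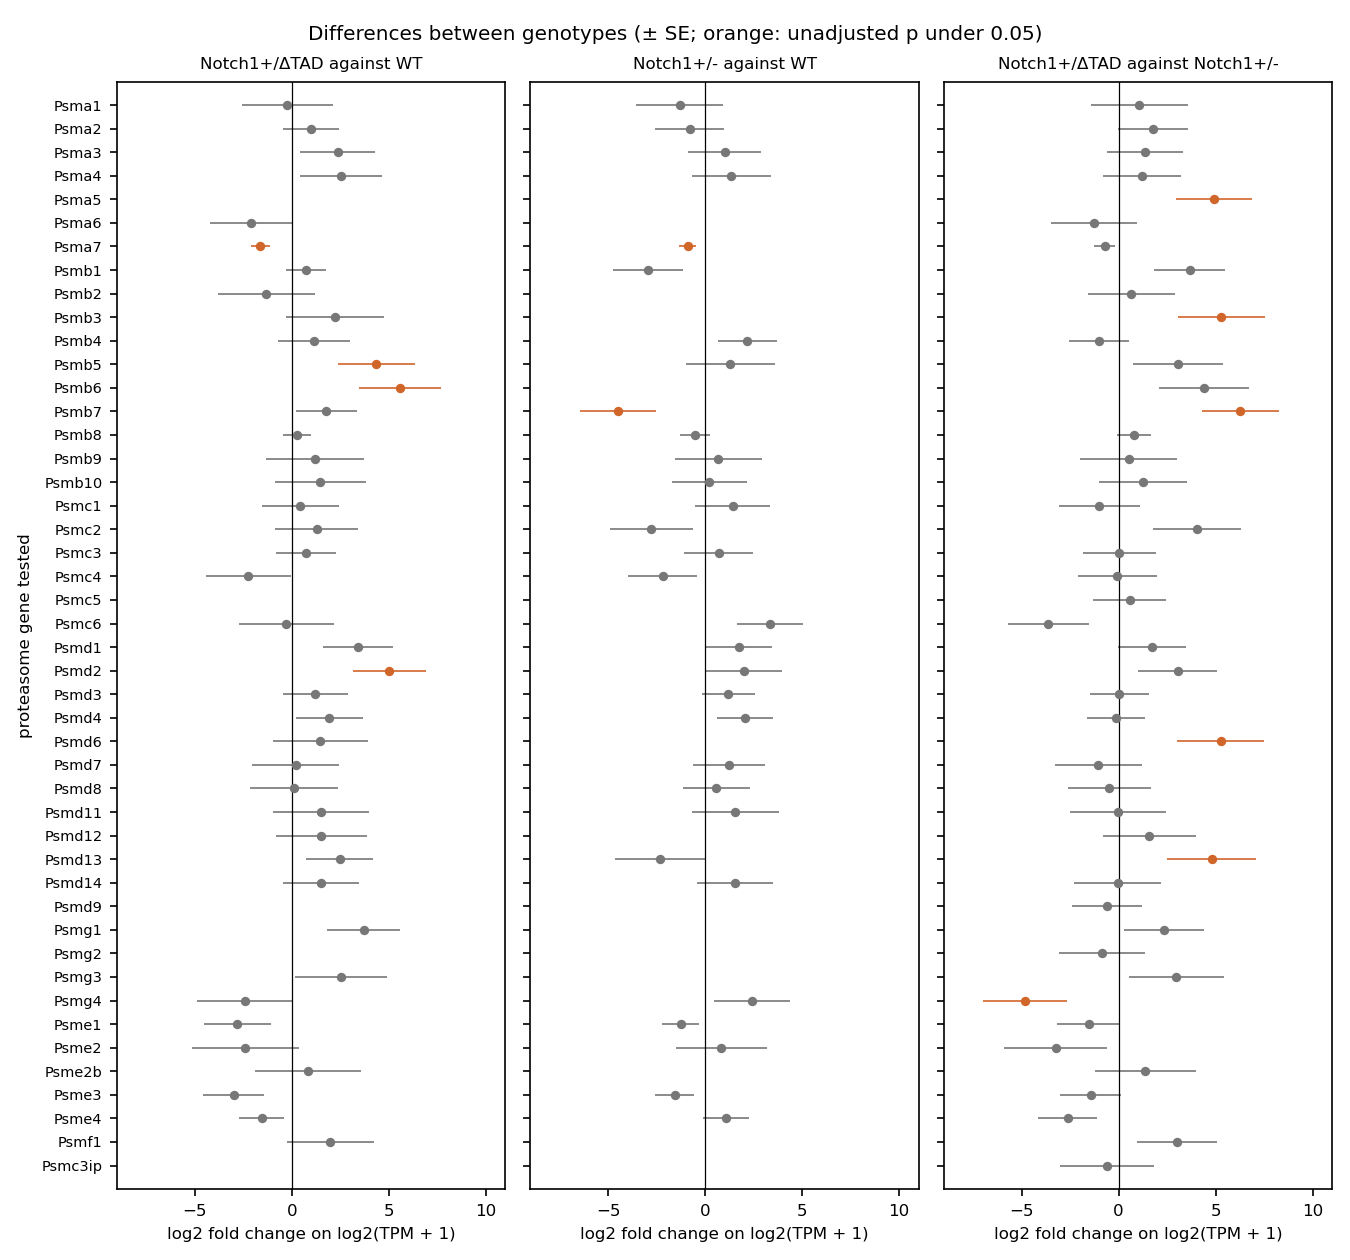
Log2 fold change on the log2(TPM + 1) scale (points) with its SE (bars) for each proteasome gene tested, in the 3 comparisons of genotypes. Orange points have an unadjusted p under 0.05 and no point passed after adjustment. Psma5 is left out against WT, where it was listed at 0. Psma7 has the shortest bars and lies left of 0 in all 3 panels.

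Among the core alpha genes, which form the outer rings, Psma7 was highest in WT and lowest in Notch1+/ΔTAD CLPs. It lies at chr2:180036374-180042433 on the minus strand of GRCm38, has 7 exons, and shared no 75-base window of its last 500 bases with another annotated transcript. It was 2289.8, 1276, 1909, 746, and 1659 TPM in the WT libraries 1, 2, 3, 10, and 11. The Notch1+/- libraries 4, 5, 6, 12, and 13 held 1022, 796, 789, 623, and 741 TPM, in the order used below as well. The Notch1+/ΔTAD libraries 7, 9, and 14 held 452, 598, and 406 TPM. All 3 Notch1+/ΔTAD libraries were below all WT and all Notch1+/- libraries, and WT and Notch1+/- libraries overlapped only through WT library 10. The means were 1576 ± 593 (SD, n = 5), 794 ± 145 (SD, n = 5), and 485 ± 100.1 TPM (SD, n = 3).

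The log2 fold change of Psma7 was -1.62 (SE 0.49) in Notch1+/ΔTAD against WT, with a limma adjusted p of 0.511 and a 2-sided exact permutation p of 0.0179. The latter is the smallest p that the 56 splits of these libraries allow. Psma7 was named partly because these libraries did not overlap, so this permutation p is no independent support. It was not adjusted for the 39 such tests on the 13 members given by library. In Notch1+/- against WT the log2 fold change was -0.91 (SE 0.42, limma adjusted p = 0.910, exact permutation p = 0.0317), and in Notch1+/ΔTAD against Notch1+/- it was -0.71 (SE 0.54, limma adjusted p = 0.997, exact permutation p = 0.0179). Psma7 was lower in each of 17, 19, and 22 alternative analyses of these comparisons. Where the groups did not overlap, leaving out a library could not reverse this. Changing the filter, the eBayes trend, or the libraries in the model does not alter the fold change. Such alternatives are therefore no support for the direction. In Notch1+/ΔTAD against WT the log2 fold change of Psma7 ranged from -1.86 to -1.46 over the 17 alternatives. In 14 of the 19 for Notch1+/- against WT the unadjusted p was above 0.05.

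Psma5 showed the opposite order. This alpha subunit gene lies at chr3:108256926-108279974 on the plus strand and has 9 exons. It was at 0 in all 5 WT libraries and at 248, 216, and 301 TPM in the Notch1+/ΔTAD libraries. In Notch1+/- libraries it was 47.6, 337, 0, 0.590, and 0.548 TPM, so that this group spanned both. It passed the filter against WT through the 3 Notch1+/ΔTAD libraries alone, so its difference from WT is given as levels, with no p, and no fold is given against a group listed at 0. Between the mutants the log2 fold change was 4.93 (SE 1.96, limma adjusted p = 0.932, exact permutation p = 0.0893). Of the 75-base windows in the last 500 bases of its transcript, 40.6% also occur in the processed pseudogenes Gm12989 or Gm8394. How reads shared with them were counted is not given in the sources used here, and their part in the zeros was not tested.

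**Figure D4:**
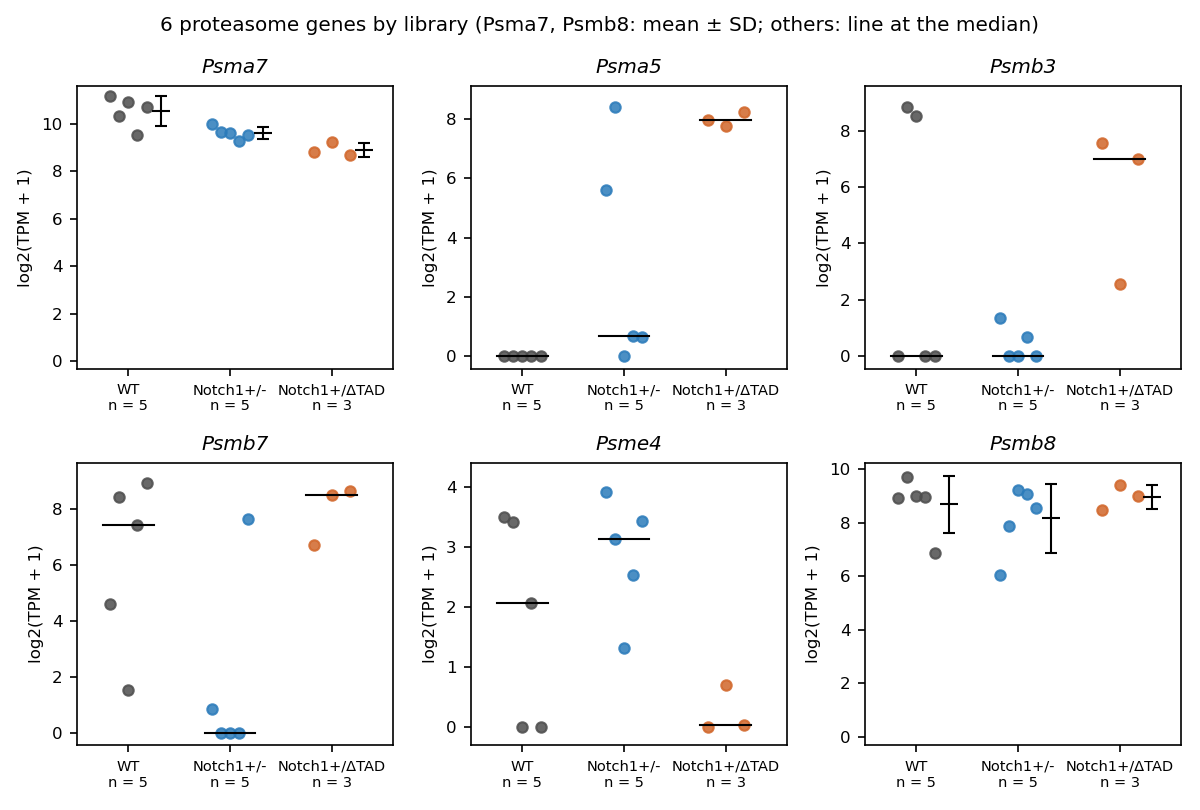
Log2(TPM + 1) of 6 proteasome genes in each library (points) by genotype, with the mean and SD for Psma7 and Psmb8, which were above 0 in all libraries, and a line at the median for the others. The 3 Notch1+/ΔTAD points lie below all others for Psma7, above the 5 WT points at 0 for Psma5, and within the WT range for Psmb8.

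Of the 7 core alpha genes tested in Notch1+/ΔTAD against WT, 4 were higher and 3 lower. The other alpha genes overlapped between genotypes. Psma2 was 1092, 503, 3.75, 903, and 299 TPM in WT, 1352, 1.02, 353, 1017, and 45.6 TPM in Notch1+/-, and 537, 222, and 866 TPM in Notch1+/ΔTAD libraries. Its log2 fold change in Notch1+/ΔTAD against WT was 1.00 (SE 1.46, limma adjusted p = 0.996), and -0.40 without WT library 3. It overlaps AW209491 on the same strand. Psma4 ranged from 0 to 1845 TPM, Psma1 from 0 to 407 TPM, Psma3 from 0 to 131 TPM, and Psma6, above 0 in 5 libraries, from 0 to 279 TPM. Psma3 was above 0 in all 3 Notch1+/ΔTAD libraries, at 52.9 to 93.0 TPM, and in 4 of 5 WT libraries.

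Of the 7 constitutive beta genes tested in Notch1+/ΔTAD against WT, 6 were higher and 1 lower, where 61.8% of all tested genes were higher. Between the mutants 6 were also higher and 1 lower, where 58.9% of all tested genes were higher. In Notch1+/- against WT 4 were tested, of which 2 were higher and 2 lower. The spread between libraries was wide. Psmb4, a noncatalytic subunit, ranged from 0 to 1328 TPM and was above 0 in 12 libraries. Psmb3, also noncatalytic, was 0, 459, 364, 0, and 0 TPM in WT, 1.56, 0, 0, 0.590, and 0 TPM in Notch1+/-, and 190.0, 4.87, and 126 TPM in Notch1+/ΔTAD libraries. All Notch1+/ΔTAD libraries lay above all Notch1+/- libraries, and WT libraries fell on both sides. The log2 fold change between the mutants was 5.30 (SE 2.26, limma adjusted p = 0.932). Psmb3 and Psme4, a member described below, were named because their libraries did not overlap. A permutation p would be no independent support there, and none is given for those comparisons. In the last 500 bases of Psmb3 38.5% of windows are shared with other annotated transcripts, among them Gm4950 and Gm5356.

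The catalytic genes Psmb5, Psmb6, and Psmb7 were above 0 together in all 3 Notch1+/ΔTAD libraries, in WT library 3, and in Notch1+/- library 13. Psmb5, for the chymotrypsin-like subunit, was 0, 0, 291, 99.0, and 15.6 TPM in WT, 0, 0, 372, 259, and 441 TPM in Notch1+/-, and 581, 515, and 73.3 TPM in Notch1+/ΔTAD libraries. Psmb6, for the caspase-like subunit, was 0, 319.9, 1.87, 0, and 0 TPM in WT, 169, 0, 0, 0, and 330.4 TPM in Notch1+/-, and 399, 125, and 132 TPM in Notch1+/ΔTAD libraries. Psmb7, for the trypsin-like subunit, was 23.1, 346, 1.87, 173, and 484 TPM in WT, 0.780, 0, 0, 0, and 199.6 TPM in Notch1+/-, and 105, 363, and 403 TPM in Notch1+/ΔTAD libraries. For each of them the ranges of Notch1+/ΔTAD and WT libraries overlapped. In Notch1+/ΔTAD against WT the log2 fold changes were 4.36 (SE 1.98) for Psmb5, 5.59 (SE 2.11) for Psmb6, and 1.78 (SE 1.56) for Psmb7, with limma adjusted p-values of 0.952, 0.864, and 0.984. For Psmb7 the log2 fold change was -4.49 in Notch1+/- against WT (SE 1.95, limma adjusted p = 0.892, exact permutation p = 0.0635) and 6.27 in Notch1+/ΔTAD against Notch1+/- (SE 1.99, limma adjusted p = 0.932, exact permutation p = 0.0536). In Psmb5, 42.5% of the windows in the last 500 bases also occur in the pseudogene Gm3375, and in Psmb6 and Psmb7 none is shared.

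Psmb8, the immunoproteasome counterpart of Psmb5, was the one catalytic gene above 0 in all libraries. It lies in the MHC region at chr17:34197721-34201454 on the plus strand and has 6 exons. It was 482, 839, 513, 489, and 117 TPM in WT, 65.2, 235, 595, 535, and 372 TPM in Notch1+/-, and 357, 673, and 509 TPM in Notch1+/ΔTAD libraries. The means of 488 ± 256 (SD, n = 5), 361 ± 217 (SD, n = 5), and 513 ± 158 TPM (SD, n = 3) differed by less than the spread between mice. The log2 fold change was 0.27 (SE 0.72) in Notch1+/ΔTAD and -0.54 (SE 0.77) in Notch1+/- against WT, with limma adjusted p-values of 0.996 and 0.993. Psmb9 was 0, 0, 520.2, 0, and 32.3 TPM in WT, 0, 706, 0, 5.31, and 41.2 TPM in Notch1+/-, and 0, 73.1, and 57.0 TPM in Notch1+/ΔTAD libraries. Psmb10 was 125, 94.2, 0, 0.743, and 2.81 TPM in WT, 0.413, 25.1, 0, 103, and 42.7 TPM in Notch1+/-, and 113, 0, and 165 TPM in Notch1+/ΔTAD libraries. For both genes the libraries of all genotypes overlapped, with limma adjusted p-values of 0.993 to 0.997 in all comparisons. All 3 tested immunoproteasome genes were higher in Notch1+/ΔTAD against WT, where 61.8% of all tested genes were higher. In Notch1+/- against WT 2 were higher and 1 lower.

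By listed TPM, Psmb8 was higher than Psmb5 in 11 of the 13 libraries, in 5 of 5 WT, 4 of 5 Notch1+/-, and 2 of 3 Notch1+/ΔTAD libraries. Of the windows at the 3′ end of Psmb5, 42.5% also occur in Gm3375, whereas none is shared for Psmb8. The transcript lengths also differ, at 899 bases for Psmb5 and 1628 for Psmb8. The part of shared reads and of dividing by length in this order, and in the shares of catalytic TPM below, was not tested. Psmb9 was higher than Psmb6 in 4 libraries and lower in 6, and both were at 0 in 3. Psmb10 was higher than Psmb7 in 4 libraries and lower in 8. The immunoproteasome genes held 23.3% to 96.3% of the summed TPM of the 6 catalytic genes in WT, 27.8% to 100% in Notch1+/-, and 30.2% to 54.6% in Notch1+/ΔTAD libraries. These shares overlapped between genotypes. The summed TPM of Psmb5, Psmb6, and Psmb7 was 23.1 to 666 in WT, 0 to 971 in Notch1+/-, and 608 to 1085 in Notch1+/ΔTAD libraries, and that of Psmb8, Psmb9, and Psmb10 was 152 to 1033, 65.6 to 967, and 470.0 to 746.

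**Figure D5:**
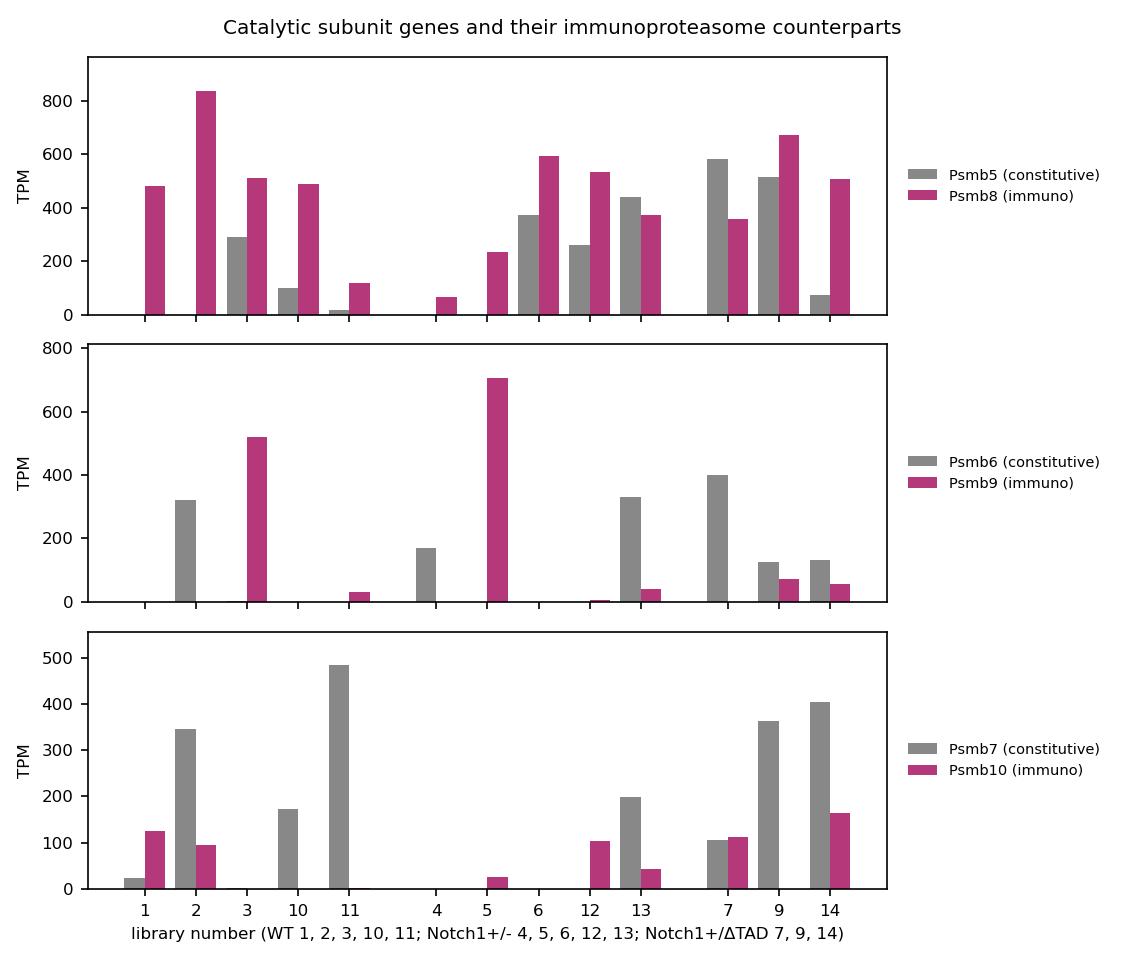
TPM of the constitutive catalytic genes (grey) and their immunoproteasome counterparts (magenta) in each library, 1 pair per panel. Psmb8 bars are present in all 13 libraries and exceed Psmb5 in 11, whereas Psmb9 and Psmb10 bars are missing or low in many libraries.

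The ATPase genes of the regulatory particle, which build the unfolding ring, gave no common direction. Of the 5 tested in Notch1+/ΔTAD against WT, 3 were higher and 2 lower, with 0 at an unadjusted p under 0.05. Psmc6 was 0, 0, 168, 0.688, and 73.4 TPM in WT, 84.4, 63.9, 168, 36.8, and 60.0 TPM in Notch1+/-, and 162, 0, and 0.330 TPM in Notch1+/ΔTAD libraries. It was above 0 in all Notch1+/- libraries and spread over the same range in both other groups, with a log2 fold change of 3.33 (SE 1.69, limma adjusted p = 0.921, exact permutation p = 0.143) in Notch1+/- against WT. Psmc4 ranged from 0 to 808 TPM and Psmc3 from 0 to 963 TPM, and each was above 0 in 12 libraries. Psmc5 was above 0 in 3.

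The non-ATPase genes, which include scaffold subunits, ubiquitin receptors, and a deubiquitinase, were all tested in Notch1+/ΔTAD against WT, and 11 of 11 had a positive log2 fold change, from 0.11 (Psmd8) to 5.02 (Psmd2), with a median of 1.52. Of all tested genes 61.8% had a positive value. With a pseudocount of 0.1 in place of 1, Psmd7 and Psmd8 turned negative, and 9 to 11 of the 11 were positive when single libraries were left out. The summed TPM of the class was 445 to 2224 in WT, 1019 to 2452 in Notch1+/-, and 1740 to 2694 in Notch1+/ΔTAD libraries, which overlapped. At an unadjusted p under 0.05 there was 1 of the 11. Psmd2, a scaffold subunit of the base, was 204, 6.32, 0, 0.543, and 3.19 TPM in WT, 0, 203, 1.70, 185, and 90.3 TPM in Notch1+/-, and 335, 225, and 110.4 TPM in Notch1+/ΔTAD libraries. Notch1+/ΔTAD libraries lay above 4 of the 5 WT libraries, with library 1 between them (SE 1.88, limma adjusted p = 0.864, exact permutation p = 0.0714). In Notch1+/- against WT, 8 of 9 tested non-ATPase genes were higher, where 51.4% of all tested genes were. In Notch1+/ΔTAD against Notch1+/-, 6 were higher and 5 lower, where 58.9% of all tested genes were higher. Psmd4, a ubiquitin receptor, had the highest median of the class at 348 TPM and a range of 0 to 1283 TPM. Psmd14, the deubiquitinase, ranged from 0 to 362 TPM and was 2.13, 16.7, and 15.0 TPM in Notch1+/ΔTAD libraries. Psmd1 was above 0 in all libraries, from 0.669 to 376 TPM, and overlaps Gm21972, which shares 54.2% of the windows in its last 500 bases.

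Of the regulatory particle chaperones, Psmd5 and Psmd10 were above 0 in 2 libraries each and Psmd9 in 4, and none was tested against WT. The core chaperones Psmg1, Psmg2, Psmg3, and Psmg4 were above 0 in 7, 4, 9, and 11 libraries and ranged from 0 to 87.9, 939, 373, and 529.6 TPM. Psmg4 was 0.830, 1.34, and 28.3 TPM in Notch1+/ΔTAD and 373, 489, 3.68, 205, and 322 TPM in Notch1+/- libraries, with a log2 fold change of -4.82 (SE 2.18, limma adjusted p = 0.932). Notch1+/ΔTAD library 14 lay above Notch1+/- library 6.

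Of the activators, Psme1 and Psme2 code for the subunits of the PA28 cap, which binds the core in place of the regulatory particle. Psme1 ranged from 0 to 1308 TPM and was above 0 in 12 libraries. Psme2 and Psme2b are 99.4% identical over 794 aligned bases, Psme2 with 11 exons and Psme2b with 1, and 45.1% of the windows in the last 500 bases are shared. Psme2 alone was above 0 in 7 libraries, Psme2b alone in 2, both in 2, and neither in 2, so their values are uncertain one by one. Their sum ranged from 0 to 1043 TPM. Psme4, for the PA200 activator, was 10.3, 9.62, 0, 3.19, and 0 TPM in WT, 14.0, 7.79, 1.49, 4.81, and 9.83 TPM in Notch1+/-, and 0, 0.633, and 0.0194 TPM in Notch1+/ΔTAD libraries. All Notch1+/ΔTAD libraries were below all Notch1+/- libraries (log2 fold change -2.62, SE 1.52, limma adjusted p = 0.987), whereas WT libraries reached down to 0. Psme3 ranged from 0 to 346 TPM, and Psmf1, the inhibitor PI31, from 0 to 117 TPM and was above 0 in 5 libraries. Of the 6 activators and inhibitors tested in Notch1+/ΔTAD against WT, 2 were higher and 4 lower, with a median log2 fold change of -1.98. Of all tested genes 61.8% were higher.

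Of the other genes of the pathway, in 5 lists, 0 passed limma after adjustment in the 3 comparisons, and 1 had an unadjusted p under 0.05. Of 10 listed proteasome genes outside the name pattern, 8 were matched by symbol (all but Shfm1 and Paaf1). In Notch1+/ΔTAD against WT 5 were tested, and 5 were higher with 0 at an unadjusted p under 0.05. Of all genes tested in that comparison 61.8% were higher. Pomp, the maturation factor of the core, was above 0 in all libraries, at 2.41 to 2145 TPM in WT, 243 to 1352 TPM in Notch1+/-, and 384 to 1993 TPM in Notch1+/ΔTAD libraries. Sem1, a small subunit of the regulatory particle, was 153 to 937, 0 to 956, and 580.4 to 628 TPM. Of 9 tested genes for ubiquitin and substrate delivery, 4 were higher and 5 lower in Notch1+/ΔTAD against WT, and the summed TPM of that list was 8615 to 16740 over the 13 libraries. Vcp, the unfoldase that delivers substrates, was 206 to 379.9 TPM in WT, 84.3 to 164 TPM in Notch1+/-, and 91.1 to 406 TPM in Notch1+/ΔTAD libraries. WT and Notch1+/- libraries did not overlap (log2 fold change -1.03, SE 0.68, limma adjusted p = 0.978), and it was chosen for mention after its values were seen. Of the regulators, Nfe2l1 and Nfe2l2 were above 0 in 4 and 7 libraries and Irf1 in all 13, at 2.33 to 1199 TPM. Among interferon response genes, of which 4 of 12 were at 0 in all libraries, Irf7 was above 0 in 3 Notch1+/- libraries and in no library of the other genotypes. It passed the filter through those 3 alone, so its unadjusted p under 0.05 between the mutants is no support for a difference. Of 7 tested genes for MHC class I peptide supply, 6 were higher and 1 lower in Notch1+/ΔTAD against WT, where 61.8% of all tested genes were higher. None of the 7 had an unadjusted p under 0.05. B2m was 621 to 1792 TPM over all libraries.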

How the data were processed

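Strand-specific 3′ RNA-Seq was performed by the authors on sorted CLPs of 13 mice, with all libraries made together per the labels. They trimmed and aligned the reads to mm10 and deposited 2 tables of TPM, 1 per mutant with WT, whose 5 WT columns are identical. The tool and annotation behind the TPM values are not given in the sources used here, and read counts and depth were not used here. No count model was applied.

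TPM was tested as log2(TPM + 1) with limma 3.58.1 in R 4.3.3 (2-sided, with a trend in eBayes). The filter kept genes at 1 TPM or more in 3 libraries (5 for Notch1+/- against WT). P-values were adjusted by Benjamini-Hochberg over all tested genes, with 0.05 as the threshold. Each comparison with WT used its 2 groups, and that of the mutants a model of 13 libraries. The fit was tested on simulated data whose changed genes were given a small spread and a large change. That test does not tell whether changes in the proteasome genes could be found. Exact permutation tests of single members were 2-sided and used every assignment of the libraries to the 2 groups. Fold changes on this scale understate those of low genes.

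Members and lists were chosen with earlier results of these data known. Members given by library were those with at least 1 TPM in all libraries, those without overlap between groups, the 3 with the smallest p per comparison, and the 3 catalytic pairs. Replicates were separate mice. Gene positions and windows shared between transcripts came from GENCODE M21 on GRCm38, and upstream sequences from RefSeq on GRCm38.p6, where 42 of the 50 members were matched. Alternatives were pseudocounts of 0.1 and 10, no filter, a mean of at least 10 TPM, median-ratio scaling, quantile normalization, no trend in eBayes, other sets of libraries in the model, library number (1 to 9, 10 to 14) as a covariate, and leaving out each library in turn.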

Additional observations from a re-analysis of the deposited data

Results flagged for a closer look

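In groups of 5 libraries, a library was singled out where its gap to the nearest other library exceeded 0.71 of the range of the group. The gap was taken on log2(TPM + 1) for single genes and on untransformed values for sums and counts. The values below are TPM. Of 39 groups examined, 6 were past this limit. Chance gives about 1 in 20 for independent, normally distributed values, which TPM with many zeros and sums over the same genes are not, so this rate does not apply here. In WT, library 3 was lowest for Psma2 at 3.75 TPM (others 299 to 1092), library 2 was highest for Psmb6 at 319.9 TPM (others 0 to 1.87), and library 11 was lowest for Psmb8 at 117 TPM (others 482 to 839). The core alpha genes summed to 5683 TPM in WT library 1 (others 1917 to 2779), and the constitutive core beta genes to 2732 TPM in WT library 2 (others 1070.2 to 1385). In Notch1+/- CLPs, library 13 was highest for Psmb7 at 199.6 TPM (others 0 to 0.780). The groups of 3 Notch1+/ΔTAD libraries were too small to be examined in this way.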

How the results depend on the processing

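Of 863 values under alternatives, 826 kept their direction and their side of the threshold, or stayed within the limits set for counts and medians. Psma7 was lower in every alternative of all 3 comparisons, though several of these could not have reversed its direction. Without a trend in eBayes, 1 member, Psma5, passed in Notch1+/ΔTAD against WT, which is no support for a difference, since it entered the test through the Notch1+/ΔTAD libraries alone. The unadjusted p of Psma7 was then 0.111. In Notch1+/- against WT, where 2 members had an unadjusted p under 0.05, the count was 0 with a pseudocount of 10 and 1 each with quantile normalization, the model of 13 libraries, a mean of at least 10 TPM, eBayes without trend, and median-ratio scaling. It ranged from 0 to 3 when single libraries were left out, and the median log2 fold change from -0.15 to 0.72. Quantile normalization moved the median of all genes in Notch1+/ΔTAD against WT from 0.47 to -0.02 and that of the members from 1.21 to 0.76, and of all genes at an unadjusted p under 0.05 the share that was higher moved from 82.7% to 66.3%.

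Among the 13 members given by library, all reversals came from leaving out 1 library, and the cause was not tested. Psmd7 and Psmd8, which are not among them, turned negative with a pseudocount of 0.1 in Notch1+/ΔTAD against WT. In Notch1+/ΔTAD against WT the log2 fold change ranged from -0.40 to 1.56 for Psma2, from -0.19 to 0.52 for Psmb8, and from -2.67 to 1.01 for Psmc6 (1.01 and 0.80 without Notch1+/ΔTAD libraries 9 and 14). In Notch1+/- against WT it ranged from -2.20 to 0.73 for Psma2, from -0.60 to 1.15 for Psmb10, and from -0.80 to 2.24 for Psmb9. Between the mutants it ranged from -0.053 to 3.64 for Psmb10 and from -0.58 to 2.53 for Psmb9. No paired analysis was possible because library numbers are not shared between genotypes. Depth is unknown, so a zero cannot be bounded.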
